A study of Mus musculus with 18 samples.

Results

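Melanocytic and lymphangioleiomyomatosis marker genes, 9 of the 25791 genes in the table, were followed through every uterine library. They were taken by their symbols: Gpnmb, Mlana, Ctsk, Dct, Tyr, Tyrp1, Oca2, Rab27a and Rab38. RNA had been sequenced from uteri of mice 12 weeks old on a mixed 129Sv X C57BL/6 background, either with Tsc2 deleted in the uterus (KO) or wild-type for it (WT), in 3 hormone states. In KO intact and WT intact mice the ovaries were left in place, with no estrous stage given in the labels. In KO E2 and WT E2 mice the ovaries were removed at 4 weeks and a pellet of 0.5 mg 17β-estradiol, made to release over 90 days, was carried for 8 weeks. In KO ovx and WT ovx mice the ovaries were removed at 4 weeks and no hormone was given. There were 3 libraries in each of the 6 groups and 18 in all. The promoter that drives the deletion, the cells it reaches, and whether each library came from its own animal, are not given in the sources used here, so p-values reflect the spread between these libraries, which may be technical.

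Tsc2 encodes tuberin, which with hamartin (Tsc1) holds back mTORC1, a kinase complex that drives cell growth. Human lymphangioleiomyomatosis is a lung disease, mostly of women, in which cells that have lost TSC1 or TSC2 grow with features of both smooth muscle and pigment cells, and those cells are recognised in pathology by melanocytic proteins, by MLANA and by the protease cathepsin K. In melanocytes the same genes make and move melanin: Tyr, Tyrp1 and Dct are the enzymes of melanin synthesis, Oca2 is a channel of the melanosome membrane, Mlana and Gpnmb are melanosome proteins, Rab38 brings enzymes to the organelle and Rab27a ties it to its motor. Several are targets of MITF, a transcription factor of the MiT family, and Gpnmb and Ctsk are also made by macrophages and osteoclasts.

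Levels are given as FPKM, reads scaled by transcript length and library size, as deposited by the authors. The table holds no read counts, so depth is unknown and no counting interval is given. A value of exactly 0 can be a failed estimate and is given only as listed at 0: the lactoferrin gene Ltf, for one, was listed at 0 in 2 WT E2 libraries and read 2103 FPKM in the other. Between 4228 and 7395 genes were listed at 0 in a library, the highest number in WT intact replicate 4, which also stood apart from its group in several genes below. Lowest values over the 18 libraries of 7.92 FPKM for the epithelial keratin Krt8, 31.9 FPKM for smooth muscle actin Acta2 and 0.303 FPKM for the stromal factor Hoxa11 showed uterine genes in every library. Tsc2, read to check the labels, averaged 1.83 ± 0.19 FPKM in KO intact and 2.27 ± 0.24 FPKM in WT intact uteri, 2.15 ± 0.35 FPKM in KO E2 and 2.59 ± 0.18 FPKM in WT E2 uteri, and 2.90 ± 0.47 FPKM in KO ovx and 3.30 ± 0.17 FPKM in WT ovx uteri (SD, n = 3). The difference averaged over the 3 states was -0.18 ± 0.07 on the log2 scale (SE) and did not pass the test (limma, adjusted p = 0.158). A gene-level value counts transcript from outside a deleted part as well, and in whole uterus fewer cells of a type and less RNA per cell cannot be told apart.

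Promoters of the members are shown first for the melanin enzyme genes and for Gpnmb and Ctsk, because MiT factors act through a short motif that can be read in them. Of the 9 members, 7 had a promoter in the RefSeq table for GRCm38.p6 (Mlana and Rab38 were not matched), and the 250 bases before the transcript start were searched on both strands for CATGTG and CACGTG, the 6-letter core motifs that MiT factors are known to bind. The windows run 5′ to 3′ on the gene's own strand, with each CATGTG, read on either strand, in capitals. They lie at chr6:49036268-49036517 (plus strand) for Gpnmb, chr3:95498960-95499209 (plus) for Ctsk, chr14:118052247-118052496 (minus) for Dct, chr7:87493513-87493762 (minus) for Tyr and chr4:80833963-80834212 (plus) for Tyrp1.
Gpnmb: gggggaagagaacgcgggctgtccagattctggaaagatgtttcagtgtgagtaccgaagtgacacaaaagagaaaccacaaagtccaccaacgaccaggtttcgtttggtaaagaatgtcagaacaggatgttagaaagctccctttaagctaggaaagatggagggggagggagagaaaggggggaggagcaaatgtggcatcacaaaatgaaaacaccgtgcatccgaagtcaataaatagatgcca
Ctsk: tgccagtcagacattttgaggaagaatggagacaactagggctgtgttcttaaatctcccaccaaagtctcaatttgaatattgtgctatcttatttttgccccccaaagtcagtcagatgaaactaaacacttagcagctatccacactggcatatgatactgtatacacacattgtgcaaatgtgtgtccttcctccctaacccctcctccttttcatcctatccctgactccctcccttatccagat
Dct: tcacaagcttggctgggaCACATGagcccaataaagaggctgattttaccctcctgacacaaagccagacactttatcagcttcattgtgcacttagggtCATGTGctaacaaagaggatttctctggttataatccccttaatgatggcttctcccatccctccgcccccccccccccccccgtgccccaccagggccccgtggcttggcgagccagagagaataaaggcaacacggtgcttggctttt
Tyr: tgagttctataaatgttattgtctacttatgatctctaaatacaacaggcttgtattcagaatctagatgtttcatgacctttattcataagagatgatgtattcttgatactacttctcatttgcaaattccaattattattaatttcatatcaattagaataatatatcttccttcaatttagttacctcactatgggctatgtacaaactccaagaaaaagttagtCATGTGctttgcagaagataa
Tyrp1: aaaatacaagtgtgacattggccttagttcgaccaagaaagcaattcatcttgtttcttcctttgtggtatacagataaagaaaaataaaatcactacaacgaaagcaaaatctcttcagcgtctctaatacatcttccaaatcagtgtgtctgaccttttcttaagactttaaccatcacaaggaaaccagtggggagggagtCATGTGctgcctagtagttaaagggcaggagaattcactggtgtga
CATGTG stood 46 bases before the start of Tyrp1, 21 before that of Tyr, and 232 and 150 before that of Dct, and the longer TCATGTG was in all 3 windows. Oca2 held 1 CATGTG, 186 bases before its start. Gpnmb and Ctsk held neither motif, and of 2 Rab27a windows 1 held a CACGTG. Distances hold for the RefSeq starts only. The 50 bases after the start lay whole in 1 of 3 transcripts of Tyr and 1 of 4 of Tyrp1 in GENCODE, another annotation. They lay in 0 of 5 for Gpnmb, 0 of 1 for Ctsk, 0 of 4 for Dct, 0 of 6 for Oca2 and 0 of 4 for Rab27a. Over all 32851 windows of the same length, 12.3% held CATGTG, 3.25% TCATGTG and 6.02% CACGTG. A match is only a match of letters, and its absence says nothing of what binds further away.

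Expression split the members into 3 classes. Gpnmb, Mlana, Ctsk and Rab27a, 4 of the 9, had 1 FPKM or more in 3 or more libraries and entered the fit. Rab38, Dct and Tyr, 3 of 9, lay below that filter, and Tyrp1 and Oca2, 2 of 9, had under 0.1 FPKM in at least 16 of the 18 libraries. Tyr, under 0.1 FPKM in 15 libraries, missed that last class by 1 library. Mlana reached the filter through KO libraries alone, 5 KO and 0 WT libraries at 1 FPKM or more, so its passing the filter already favours a genotype difference.

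**Figure D1:**
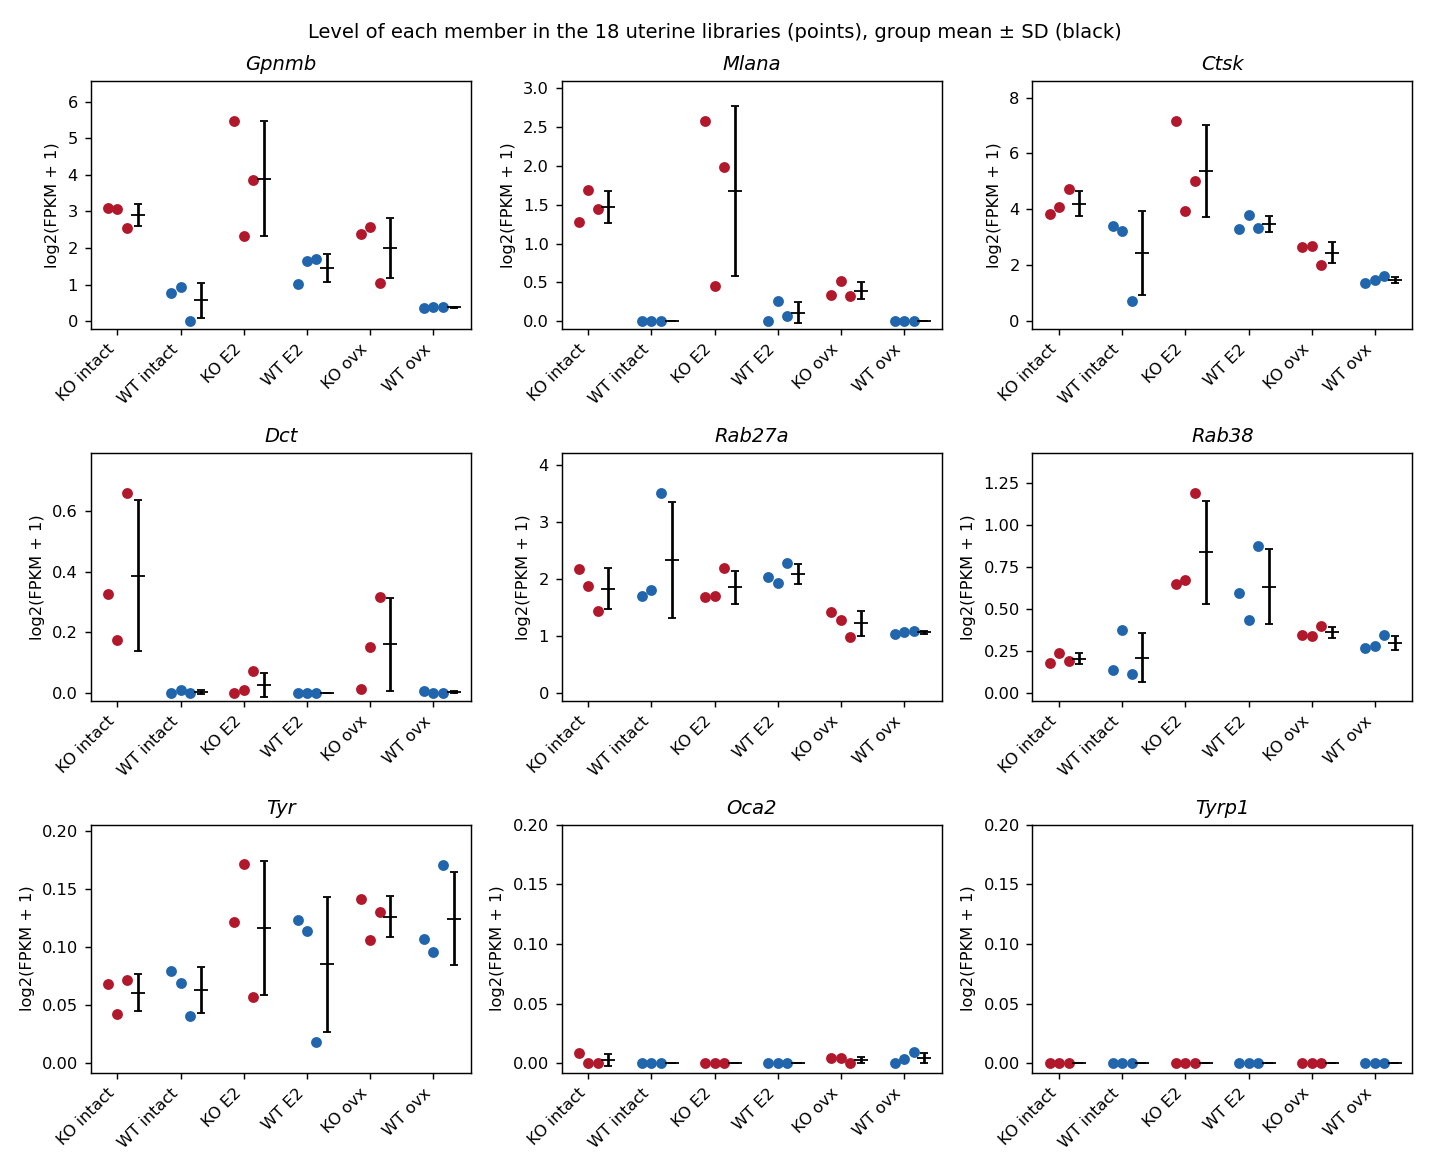
Level of each of the 9 members on the log2(FPKM + 1) scale (vertical axis) in the 3 libraries of each group (points, red for KO and blue for WT), with the group mean ± SD in black; the vertical axes differ between panels. Gpnmb, Mlana and Ctsk have every KO library above every WT library of the same state, Rab27a and Rab38 do not, and Tyrp1 is listed at 0 in all 18 libraries.

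Gpnmb, a membrane glycoprotein of melanosomes and lysosomes, separated the genotypes in every state. It read 7.50, 7.38 and 4.82 FPKM in KO intact libraries, against 0.689, 0.895 and 0.0108 FPKM in WT intact libraries. In the E2 state it read 43.5, 4.05 and 13.7 FPKM in KO and 1.00, 2.14 and 2.23 FPKM in WT libraries. In the ovx state it read 4.26, 4.92 and 1.08 FPKM in KO and 0.277, 0.311 and 0.298 FPKM in WT libraries. The lowest KO library stood above the highest WT library in each state, and the KO mean was 12.4 times the WT mean in intact, 11.4 times in E2 and 11.6 times in ovx uteri. Leaving out any 1 library, the ratio ran from 8.29 to 18.8 in intact, from 4.95 (without KO E2 replicate 1) to 15.95 in E2 and from 9.05 to 15.6 in ovx uteri. By mean level the groups ran from KO E2 (20.4 ± 20.6 FPKM), KO intact (6.57 ± 1.51 FPKM) and KO ovx (3.42 ± 2.06 FPKM) to WT E2 (1.79 ± 0.68 FPKM), WT intact (0.532 ± 0.463 FPKM) and WT ovx (0.295 ± 0.017 FPKM; SD, n = 3). Of the neighbours in that order, WT E2 and WT intact did not overlap in their libraries, and the others did.

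Mlana, the melanosome protein Melan-A, was listed at 0 in 7 of 9 WT libraries. It read 1.43, 2.24 and 1.72 FPKM in KO intact libraries and was listed at 0 in all 3 WT intact libraries. KO E2 libraries read 4.98, 0.375 and 2.95 FPKM, against 0, 0.194 and 0.050 FPKM in WT E2 libraries. KO ovx libraries read 0.266, 0.428 and 0.250 FPKM, and all 3 WT ovx libraries were listed at 0. Mlana was thus above 0 in 9 of 9 KO libraries and 2 of 9 WT libraries, both of these in the E2 state. By mean level KO E2 and KO intact overlapped, KO ovx lay below both means and without overlap with KO intact, and WT E2 lay below KO ovx without overlap. Its level was a part of Gpnmb's in each KO library, 19.1 to 35.6% of the Gpnmb FPKM in KO intact, 9.24 to 21.6% in KO E2 and 6.24 to 23.3% in KO ovx uteri.

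Ctsk, the collagen-degrading cysteine protease cathepsin K, was the most abundant member. It read 13.1, 15.9 and 25.2 FPKM in KO intact libraries, against 9.57, 8.29 and 0.642 FPKM in WT intact libraries, the last of these in WT intact replicate 4. KO E2 libraries read 142, 14.3 and 31.1 FPKM, and WT E2 libraries 8.79, 13.0 and 9.16 FPKM. KO ovx libraries read 5.24, 5.44 and 3.07 FPKM, and WT ovx libraries 1.60, 1.78 and 2.03 FPKM. KO libraries again lay above all WT libraries in each state, but by less, with KO means 2.93, 6.06 and 2.54 times the WT means in the intact, E2 and ovx states. Without KO E2 replicate 1 the E2 ratio was 2.20, and without WT intact replicate 4 the intact ratio was 2.03. By mean level the groups ran KO E2, KO intact, WT E2, WT intact, KO ovx and WT ovx, and of these neighbours KO intact and WT E2, and KO ovx and WT ovx, did not overlap. Per FPKM of Gpnmb, Ctsk stood at 1.11 to 5.23 FPKM over the KO libraries and at 4.10 to 59.3 FPKM over the WT libraries.

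Averaged over the 3 hormone states, Gpnmb, Mlana and Ctsk, 3 of the 4 members in the fit, were called higher in KO than in WT uteri, where 4.17% of the 13898 genes tested were. With Mlana in the fit through KO libraries alone, and the members chosen with earlier results of these data known, counts of members called here and below describe the members and support nothing by themselves. Gpnmb was higher by 2.14 ± 0.33 on the log2 scale of FPKM + 1 (SE, limma, adjusted p = 0.00308), which placed it at rank 11 of 13898 by size of increase. Mlana was higher by 1.14 ± 0.20 (adjusted p = 0.00552) and Ctsk by 1.54 ± 0.40 (adjusted p = 0.0375), each higher in KO in all 3 states. Rab27a differed by -0.19 ± 0.21 (adjusted p = 0.624). Gpnmb and Mlana were called in 29 of 29 alternative analyses each. Ctsk's call was kept when any one of 7 libraries was left out (the 3 WT intact libraries, KO ovx replicate 4, KO E2 replicates 2 and 3, and WT E2 replicate 2) and ended for each of the other 11, with adjusted p up to 0.0749.

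By state, 2 members, Gpnmb and Mlana, passed the test in intact uteri, where 1.19% of all genes were called higher, and the same 2 in E2 uteri, where 4.91% were. In intact uteri Gpnmb differed by 2.33 ± 0.57 (adjusted p = 0.0483) and Mlana by 1.47 ± 0.35 (adjusted p = 0.0423), by limma with Benjamini-Hochberg adjustment. Both lie close to the threshold, and leaving out any 1 of the 6 intact libraries ended both calls, with adjusted p of 0.0501 to 0.180 for Gpnmb and 0.0505 to 0.175 for Mlana. In E2 uteri Gpnmb differed by 2.45 ± 0.57 (adjusted p = 0.0164) and Mlana by 1.57 ± 0.35 (adjusted p = 0.0122). Both E2 calls ended without KO E2 replicate 1 (1.66 with adjusted p = 0.0702 for Gpnmb, 1.11 with adjusted p = 0.0556 for Mlana), without KO E2 replicate 3 and without WT E2 replicate 1. Ctsk differed by 1.76 ± 0.70 in intact (adjusted p = 0.194) and 1.89 ± 0.70 in E2 uteri (adjusted p = 0.115). Its intact difference was 0.90 without WT intact replicate 4, and its E2 difference 0.99 without KO E2 replicate 1 and 2.60 (adjusted p = 0.0172) without KO E2 replicate 2.

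In ovx uteri 0 members passed limma's test, where 4.63% of all genes were called higher, and 1, Gpnmb, had an unadjusted p under 0.05. The differences were 1.63 ± 0.57 for Gpnmb (adjusted p = 0.113), 0.97 ± 0.70 for Ctsk (adjusted p = 0.477) and 0.39 ± 0.35 for Mlana (adjusted p = 0.581). Adding 1 to the FPKM before taking logs compresses genes as low as Mlana. Gpnmb, Mlana and Ctsk each had KO libraries above all WT libraries in intact, E2 and ovx uteri, a separation that held in 10.3, 10.4 and 26.8% of all genes tested in the single states and in 0.72% of them in all 3 states.

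**Figure D2:**
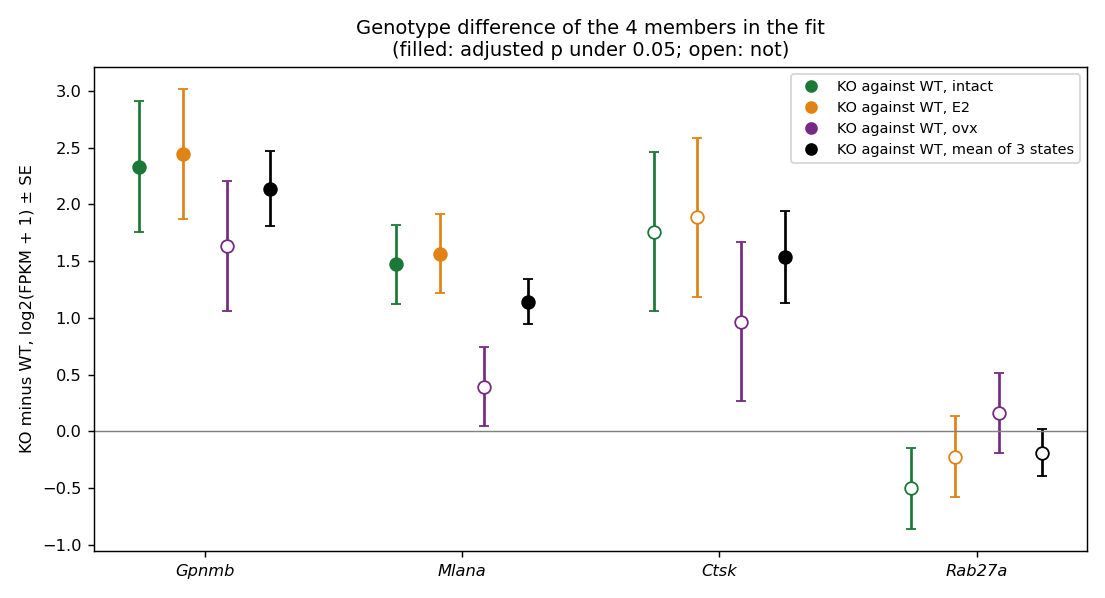
KO minus WT difference on the log2(FPKM + 1) scale with its SE (vertical axis) for the 4 members in the fit, by hormone state and averaged over the 3 states; filled points have an adjusted p under 0.05. Gpnmb, Mlana and Ctsk are above 0 in every state and called in the average, and Rab27a runs from -0.50 in intact to 0.16 in ovx uteri and is not called.

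Libraries were divided into 4 sets, a number that was chosen and not found, by the steps of their lowest values, and the labels name no batch. The share of low values that 2 libraries had at a common ratio was 3.56 to 19.65% within and 1.11 to 3.98% between sets. The sets were thus not fully apart. Within sets that held both genotypes of a state the differences of Gpnmb, Mlana and Ctsk kept their direction. KO minus WT for Gpnmb was 2.43 and 2.15 in the 2 sets with intact libraries, 2.18 and 2.58 in the 2 sets with E2 libraries and 1.64 in the set with ovx libraries. For Mlana the same differences were 1.36 and 1.69 in intact, 1.91 and 1.39 in E2 and 0.39 in ovx libraries. For Ctsk they were 2.21 and 0.87 in intact, 1.66 and 2.00 in E2 and 0.96 in ovx libraries. For Rab27a they were -0.80 and 0.08 in intact, -0.08 and -0.30 in E2 and 0.17 in ovx libraries, with no common direction. Some of these rest on 1 library of each genotype.

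Dct, the tautomerase of melanin synthesis, was low everywhere but not evenly so. KO intact libraries read 0.253, 0.129 and 0.581 FPKM, against 0, 0.00747 and 0 FPKM in WT intact libraries. KO ovx libraries read 0.00905, 0.110 and 0.246 FPKM, against 0.00538, 0 and 0 FPKM in WT ovx libraries. KO E2 libraries read 0, 0.00557 and 0.0508 FPKM, and all 3 WT E2 libraries were listed at 0. Dct was thus above 0 in 8 of 9 KO and 2 of 9 WT libraries, and KO lay above all WT libraries in the intact and ovx states. Of all genes tested, 10.3% had that separation in intact and 26.8% in ovx uteri. In the fit without the filter on low values, over 25791 genes, the intact difference was 0.38 ± 0.09 (limma, adjusted p = 0.0790), short of the threshold. Its highest values were in the intact state, where Mlana was also called, while in KO E2 uteri, where the means of Mlana and Gpnmb were highest, Dct was near 0.

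The other pigment genes gave little signal in either genotype. Tyr, the enzyme of the first step of melanin synthesis, was between 0.0130 and 0.126 FPKM in all 18 libraries, and its group means ran from 0.0430 in KO intact to 0.0913 in KO ovx uteri, with the ranges of neighbouring groups overlapping throughout. Tyrp1, which acts later in the same synthesis, was listed at 0 in all 18 libraries. Oca2 was listed at 0 in 13 of 18 and reached 0.00628 FPKM at most, in a WT ovx library. At such levels a difference between genotypes was not detectable.

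The Rab GTPases, which carry and tether melanosomes and other lysosome-related organelles, did not follow Gpnmb and Mlana. Rab27a read 3.50, 2.69 and 1.72 FPKM in KO intact libraries, and 2.23, 2.49 and 10.4 FPKM in WT intact libraries, the highest in WT intact replicate 4. KO E2 libraries read 2.20, 2.25 and 3.58 FPKM, and WT E2 libraries 3.11, 2.83 and 3.85 FPKM. KO ovx libraries read 1.66, 1.43 and 0.976 FPKM, and WT ovx libraries 1.05, 1.11 and 1.11 FPKM. The genotypes overlapped in every state, and the KO minus WT difference was -0.50 ± 0.36 in intact (adjusted p = 0.490), -0.23 ± 0.36 in E2 (adjusted p = 0.777) and 0.16 ± 0.36 in ovx uteri (adjusted p = 0.866, limma). Without WT intact replicate 4 the intact difference was 0.08.

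Rab38 read 0.134, 0.182 and 0.139 FPKM in KO intact libraries and 0.101, 0.298 and 0.0818 FPKM in WT intact libraries. It read 0.572, 0.592 and 1.29 FPKM in KO E2 and 0.511, 0.351 and 0.833 FPKM in WT E2 libraries, and 0.271, 0.265 and 0.319 FPKM in KO ovx and 0.203, 0.217 and 0.271 FPKM in WT ovx libraries. The genotypes overlapped in each state, while the E2 libraries of both genotypes lay above all ovx libraries. In the fit without the filter Rab38 was higher in KO E2 than in KO ovx uteri by 0.48 ± 0.13 (limma, adjusted p = 0.0250), and the WT difference was 0.34 ± 0.13 (adjusted p = 0.0732). Higher levels in E2 than in ovx uteri were common: in the filtered fit 15.9% of genes were called so in KO and 32.3% in WT. Shares for the fit without the filter, and for E2 libraries above all ovx libraries, are not given here.

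The members were also compared between hormone states. In KO uteri, E2 against ovx called 3 of the 4 members higher, where 15.9% of all genes were: Ctsk by 2.92 ± 0.70 (adjusted p = 0.00688), Gpnmb by 1.89 ± 0.57 (adjusted p = 0.0242) and Mlana by 1.28 ± 0.35 (adjusted p = 0.0138, limma). The Gpnmb and Mlana calls ended without KO E2 replicate 1, at 1.10 (adjusted p = 0.116) and 0.83 (adjusted p = 0.0677), and the Gpnmb call also without KO E2 replicate 3 or KO ovx replicate 4. Without those 3 libraries together, which left KO E2 replicate 2 alone in its group, the differences were 1.28 for Ctsk, -0.14 for Gpnmb and 0.03 for Mlana. In a fit of the KO E2 and KO ovx libraries alone 0 members were called. Macrophage markers moved with this comparison, 14 of 14 called higher in E2 than in ovx uteri in KO and 10 of 14 in WT, and their part in the members' differences was not tested. In WT uteri, E2 against ovx called 2 of 4 higher, where 32.3% of all genes were: Ctsk by 2.00 ± 0.70 (adjusted p = 0.0289) and Rab27a by 1.02 ± 0.36 (adjusted p = 0.0287). The Ctsk call ended without any of the 3 WT ovx libraries or WT E2 replicates 2 or 5, and the Rab27a call without any of the 3 WT ovx libraries or WT E2 replicates 1 or 5. Gpnmb differed by 1.08 ± 0.57 in the same WT comparison (adjusted p = 0.134), where its E2 libraries lay above all ovx libraries. The share of all genes with that separation is not given here.

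With ovaries in place rather than removed, 1 member was called in each genotype. Mlana was higher in KO intact than in KO ovx uteri by 1.08 ± 0.35 (limma, adjusted p = 0.0470), where 7.14% of all genes were called higher, and the call ended without any 1 of those 6 libraries. Gpnmb differed by 0.89 ± 0.57 in the same KO comparison (adjusted p = 0.315). Rab27a was higher in WT intact than in WT ovx uteri by 1.27 ± 0.36 (adjusted p = 0.0103), where 29.9% were, and by 0.68 (adjusted p = 0.0260) without WT intact replicate 4.

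Whether the hormone response differed between genotypes was tested directly, and 0 members passed limma's test for the response to E2, where 11% of all genes were called in either direction, or to the ovaries, where 4.63% were. Mlana came nearest in both, with a KO minus WT difference in response of 1.17 ± 0.49 to E2 (adjusted p = 0.135) and 1.08 ± 0.49 to the ovaries (adjusted p = 0.190), and was the 1 member with an unadjusted p under 0.05 in each. The E2 value was 1.78 (adjusted p = 0.000213) without KO E2 replicate 2 and 0.72 without KO E2 replicate 1. Mlana reached the filter through KO libraries alone and was listed at 0 in all 3 WT intact and all 3 WT ovx libraries. Its WT response to the ovaries thus could not be measured, and the 1.08 is the KO difference alone. Its WT response to E2 was read against libraries listed at 0, so neither value compares 2 measured responses. For Gpnmb the difference in the response to E2 was 0.82 ± 0.81 (adjusted p = 0.543) and for Ctsk 0.92 ± 0.99 (adjusted p = 0.576).

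Gpnmb and Ctsk are made by macrophages, so 14 macrophage markers were read beside them. Their summed level was 43.8 to 66.8 FPKM in KO intact and 106 to 129 FPKM in WT intact libraries, and 0 of the 14 were called in intact uteri by limma, with 2 at an unadjusted p under 0.05, Cd68 (-1.61 on the log2 scale) and Itgam (-2.03). In WT intact replicate 4 the sum of 106 FPKM was mostly Cd14 (52.0 FPKM), Itgam (26.3 FPKM) and Cd68 (21.3 FPKM). Its Csf1r (0.137 FPKM), C1qa (0.932 FPKM) and Mpeg1 (0.278 FPKM) lay below every KO intact library, which read at least 1.10, 3.10 and 1.78 FPKM. In ovx uteri the sum was 45.3, 58.7 and 579 FPKM in KO and 55.7 to 85.3 FPKM in WT libraries, the 579 in KO ovx replicate 4, which had the lowest Gpnmb of its group. Lyz2, the lysozyme gene, made up 537 FPKM of that sum, and the other 13 markers summed to 30.9, 29.6 and 41.5 FPKM in KO ovx and 32.5 to 46.7 FPKM in WT ovx libraries. In E2 uteri the sum was 1022 to 3541 FPKM in KO and 278 to 811 FPKM in WT libraries. There 4 of 14 were called higher, where 4.91% of all genes were: Fcgr1, Csf1r, Trem2 and Mpeg1. Fcgr1, with 3 KO and 2 WT libraries at 1 FPKM or more, needed its KO libraries to reach the filter. Without Lyz2, at 2470 FPKM in KO E2 replicate 3, the E2 sums were 659 to 1072 FPKM in KO and 261 to 735 FPKM in WT libraries and overlapped. Cd14 made up 561 FPKM of the 735 in WT E2 replicate 5. In intact uteri Gpnmb was higher in KO libraries whose macrophage sums were lower, at 7.73 to 17.1 FPKM per 100 FPKM of macrophage markers, against 0.0102 to 0.752 in WT. The 0.0102 was in WT intact replicate 4. In E2 uteri 12 of the 14 macrophage markers were on average higher in KO, as Gpnmb was, and Cd14 and Itgam were lower. Cd14 averaged 278 FPKM in KO E2 and 346 FPKM in WT E2 uteri, and Itgam 18.7 FPKM in KO E2 and 25.0 FPKM in WT E2 uteri. Gpnmb per 100 FPKM of all 14 markers was 3.72, 0.397 and 0.386 in KO E2 and 0.275 to 0.361 in WT E2 libraries. In ovx uteri it was 9.41, 8.38 and 0.186 in KO and 0.365 to 0.534 in WT libraries. Per 100 FPKM of the 13 markers other than Lyz2, Gpnmb was 12.2 to 24.5 FPKM in KO intact and 0.0104 to 1.01 in WT intact libraries, 5.73, 0.615 and 1.27 in KO E2 and 0.304 to 0.384 in WT E2 libraries, and 13.8, 16.6 and 2.59 in KO ovx and 0.666 to 0.917 in WT ovx libraries. On that count every KO library lay above every WT library of its state, while with all 14 markers KO ovx replicate 4, at 0.186, lay below the WT ovx libraries. Lyz2 was left out after its values were seen. The part of macrophages in the Gpnmb and Ctsk differences was not tested.

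**Figure D3:**
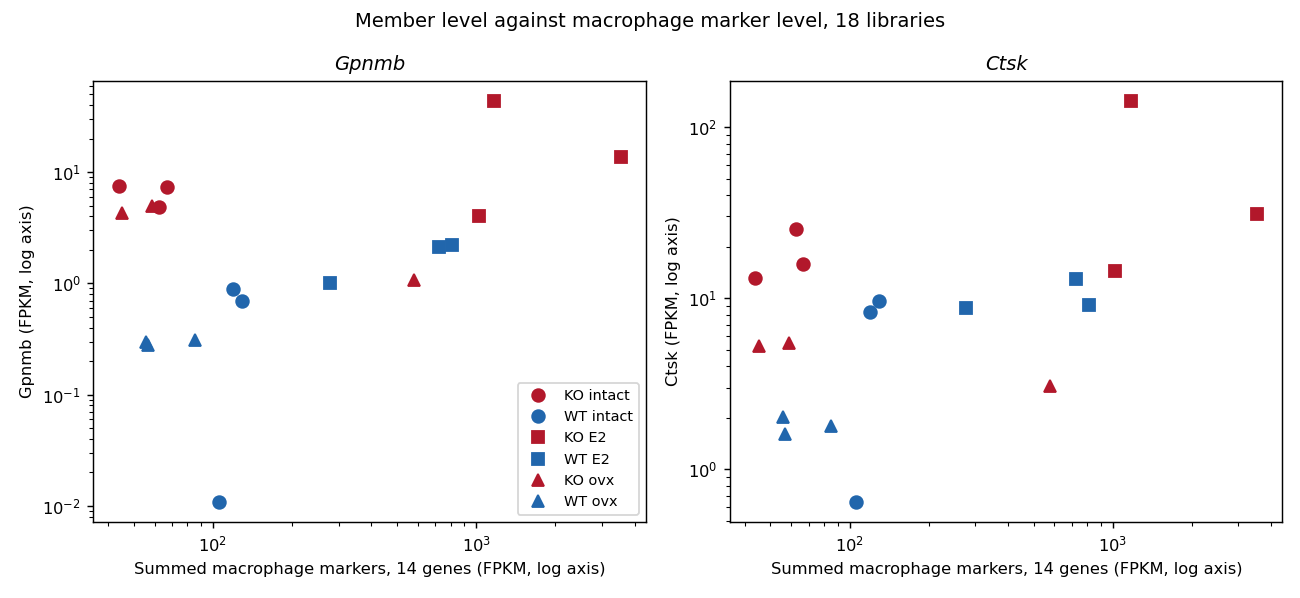
Gpnmb (left) and Ctsk (right) in FPKM against the summed FPKM of 14 macrophage markers, both on log axes, for the 18 libraries (red KO, blue WT; circles intact, squares E2, triangles ovx). KO intact libraries have more Gpnmb at lower macrophage sums than WT intact libraries, and KO E2 libraries have both higher sums and more Gpnmb than WT E2 libraries. The sum of WT intact replicate 4 is mostly Cd14, Itgam and Cd68.

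Markers of other cells also moved with some groups, and their part in the members' differences was not tested. Summed adipocyte markers (7 genes) were 442, 5.16 and 2422 FPKM in KO E2 replicates 1, 2 and 3, 5.91, 48.7 and 2.85 FPKM in WT E2 libraries, 15.6, 16.1 and 150 FPKM in KO ovx libraries and 5.36 to 8.13 FPKM in WT ovx libraries. In E2 uteri 0 of the 6 tested were called by limma, and 6 had an unadjusted p under 0.05. The share of all genes at that unadjusted level is not given here, so such counts describe the lists only. The 3 libraries highest in these markers, KO E2 replicates 1 and 3 and KO ovx replicate 4, were left out together, a choice made after the values were seen. That left KO E2 replicate 2, lowest of its group in Gpnmb and Mlana, as the only KO E2 library. The E2 difference was then 0.89 for Gpnmb and 0.35 for Mlana, and the ovx difference of Gpnmb was 2.11. Neutrophil markers (6 genes) summed to 1360 to 14870 FPKM in KO E2 and 71.4 to 2353 FPKM in WT E2 libraries, 2103 FPKM of the last being Ltf. Of the 6, 3 were called higher in KO E2 uteri, Camp, Ngp and Retnlg, where 4.91% of all genes were. The 5 genes other than Ltf summed to 1330 to 14680 FPKM in KO E2 and 71.4 to 566 FPKM in WT E2 libraries, and Camp, at most 0.844 FPKM in WT, reached the filter through KO libraries alone. Ngp, with 4 KO and 1 WT libraries at 1 FPKM or more, also needed its KO libraries to reach it. Smooth muscle markers (8 genes) summed to 492 to 1713 FPKM in KO intact and 73.4 to 462 FPKM in WT intact libraries, with 1 of 8, Des, called higher and all 8 at an unadjusted p under 0.05. In E2 and in ovx uteri 0 of these 8 had a KO minus WT difference above 0. Of 8 endothelial markers 4, namely Vwf, Ptprb, Erg and Pecam1, were called higher in KO intact uteri, where 1.19% of all genes were. Their sum was 14.4, 10.3 and 1.80 FPKM in the WT intact libraries, the last in replicate 4. KO minus WT was above 0 for 8 of the 8 in E2 uteri (median 0.78) and for 0 in ovx uteri (median -0.57), with 0 called in either. Of 8 epithelial markers Cldn4 was higher in KO ovx uteri, where 4.63% of all genes were, and Cldn3 and Cdh1 were lower in KO E2 uteri, where 3.58% were. Mast cell markers (6 genes), stromal markers (8 genes) and Schwann cell markers (6 genes) had 0 called between genotypes in limma, and the most at an unadjusted p under 0.05 in 1 comparison was 3, for the stromal markers in E2 uteri. The stromal sum was 720, 135 and 767 FPKM in KO E2 replicates 1, 2 and 3, against 113 to 157 FPKM in WT E2 libraries, and was 46.9 FPKM in WT intact replicate 4, against 317 and 463 FPKM in the other WT intact libraries.

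Markers of the melanocyte lineage were mostly under 1 FPKM. Of 10 listed genes 2, Kit and Ednrb, reached the filter, and 0 were called between genotypes in any state by limma, with 1 of the 2 at an unadjusted p under 0.05 in intact and in E2 uteri. Mc1r, Pax3 and Slc45a2, which are read as specific to melanocytes or their precursors, were at most 0.0139 FPKM in any library. Trpm1, a melanocyte cation channel gene of the same list, read 0.270 to 0.464 FPKM in KO intact and 0.0079 to 0.115 FPKM in WT intact libraries. Gpr143, a receptor of the melanosome membrane, read 0.118 to 0.583 FPKM in KO ovx and 0.00654 to 0.0109 FPKM in WT ovx libraries. Both lay below the filter with their genotypes apart in those states, as 10.3% of all genes tested were in intact and 26.8% in ovx uteri with KO higher. Sox10, shared with Schwann cells, was 0 to 0.0648 FPKM in KO intact and 0 to 0.0102 FPKM in WT intact libraries, and averaged 0.276 FPKM in KO E2 and 0.574 FPKM in WT E2 uteri, and 0.120 FPKM in KO ovx and 0.192 FPKM in WT ovx uteri. Pmel, listed as Si, makes the fibrils of the melanosome and is the antigen of the HMB45 antibody used in diagnosis. It read 0.166, 0.271 and 0.424 FPKM in KO intact and 0.132, 0.451 and 0.952 FPKM in WT intact libraries, 0.136, 0.344 and 0.173 FPKM in KO E2 and 0.762, 0.608 and 0.662 FPKM in WT E2 libraries, and 0.124, 0.228 and 0.136 FPKM in KO ovx and 0.102, 0.0864 and 0.106 FPKM in WT ovx libraries. KO libraries lay below all WT libraries in E2 uteri, the reverse of Gpnmb and Mlana there, and above them in ovx uteri. In ovx uteri 26.8% of all genes tested had KO above all WT libraries, and the share below in E2 uteri is not given here. Pmel lay below the filter and was not tested.

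Of the 4 MiT transcription factors, 2 were called higher in the average over states, where 4.17% of all genes were. Mitf, the pigment-cell member of the family, was higher in KO by 0.67 ± 0.18 (limma, adjusted p = 0.0375), with 3.32, 3.17 and 4.36 FPKM in KO intact and 1.80, 1.85 and 0.0840 FPKM in WT intact libraries. It also read 1.76, 1.01 and 2.33 FPKM in KO E2 and 0.670, 0.966 and 0.500 FPKM in WT E2 libraries, and overlapped between genotypes in ovx uteri. Tfec, listed as Tcfec, was higher by 0.37 ± 0.06 (adjusted p = 0.00552). It read 1.33, 1.15 and 1.63 FPKM in KO E2 libraries, against 0.0491, 0.181 and 0.0896 FPKM in WT E2 libraries, and 0.0419 FPKM at most in intact and ovx libraries, so it too reached the filter through KO libraries alone. Tfeb differed by 0.31 ± 0.10 (adjusted p = 0.0889) and Tfe3 by 0.09 ± 0.10 (adjusted p = 0.642), as Tcfeb and Tcfe3 in the table.

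Genes that build or move pigment organelles mostly did not pass the test. Of 22 listed, 14 were tested. In intact uteri 0 were higher and 1 was lower, where 0.993% of all genes were: Rab32, the close relative of Rab38, by 1.40 ± 0.25 below WT (limma, adjusted p = 0.0111), at 6.01 ± 0.57 FPKM in KO and 18.2 ± 6.5 FPKM in WT uteri (SD, n = 3). In ovx uteri Hps4 was higher by 0.97 ± 0.14 (adjusted p = 0.00138). In E2 uteri Hps3 and Myo5a, the motor that Rab27a recruits, were higher by 0.63 ± 0.15 (adjusted p = 0.0189) and 1.07 ± 0.28 (adjusted p = 0.0274), and in the average Hps4 and Dtnbp1 were. Over all genes 4.63% were called higher in ovx, 4.91% in E2 and 4.17% in the average. The median difference of the 14 in the average was 0.09, against 0.01 over all genes.

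Among 12 relatives and effectors of Rab27 and Rab38, 9 were tested, and 2, Sytl2 and Exph5, were higher in the average, where 4.17% of all genes were. Exph5, at most 0.821 FPKM in WT, reached the filter through KO libraries alone. Sytl2, which links Rab27 to membranes, was higher by 0.98 ± 0.18 (limma, adjusted p = 0.00619) and by 1.98 ± 0.31 in intact uteri (adjusted p = 0.00507). It read 3.21, 4.27 and 3.43 FPKM in KO intact libraries, against 0.236, 0.272 and 0.0166 FPKM in WT intact libraries, a separation that Rab27a itself did not have. Sytl1, of the same family, was higher in ovx uteri by 1.19 ± 0.26 (adjusted p = 0.0173). Libraries at 1 FPKM or more were 8 KO and 1 WT for Sytl2, and 6 KO and 2 WT for Sytl1. Each thus needed its KO libraries to reach the filter, which already favours a genotype difference.

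Of 13 other cathepsins, the lysosomal protease family of Ctsk, 11 were tested, and 8 were higher in E2 than in ovx uteri in KO, where 15.9% of all genes were, and 8 in WT, where 32.3% were, with Ctsf lower there. Between genotypes 0 were called in intact uteri by limma, with 3 at an unadjusted p under 0.05, namely Ctsd (-1.38 on the log2 scale), Ctso (-0.44) and Ctss (-1.61). Ctsb was higher in KO ovx uteri by 1.53 ± 0.41 (limma, adjusted p = 0.0435), at 94.8 ± 45.7 FPKM in KO and 30.2 ± 4.4 FPKM in WT uteri (SD, n = 3). Ctsz and the macrophage-rich Ctss were higher in KO E2 uteri by 1.69 ± 0.28 (adjusted p = 0.00209) and 1.82 ± 0.44 (adjusted p = 0.0178), and Ctsa and Ctsz in the average by 0.68 ± 0.16 (adjusted p = 0.0249) and 0.57 ± 0.16 (adjusted p = 0.0485). No other cathepsin was called in the average. Higher calls took in 4.63% of all genes in ovx uteri, 4.91% in E2 uteri and 4.17% in the average.

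Ctsk is also an osteoclast gene, and of 8 osteoclast markers 4 were tested, namely Acp5, Nfatc1, Atp6v0d2 and Mmp9. Among the others, Calcr, Oscar and Ocstamp were at most 0.262 FPKM in any library. Atp6v0d2, a subunit of the lysosomal proton pump, was higher in KO ovx uteri by 3.93 ± 0.37 (limma, adjusted p = 4.476e-05). It read 14.04, 7.79 and 30.4 FPKM in KO ovx libraries, against 0.0413, 0.0800 and 0.0431 FPKM in WT ovx libraries. With 0.314 FPKM at most in WT it reached the filter through KO libraries alone, and in the average it was higher by 1.99 ± 0.21 (adjusted p = 0.000497). The gelatinase Mmp9 was higher in KO E2 uteri by 3.27 ± 0.51 (adjusted p = 0.00136) and in the average by 1.33 ± 0.29 (adjusted p = 0.0179). The share of all genes called higher was 4.63% in ovx uteri, 4.91% in E2 uteri and 4.17% in the average. Acp5 and Nfatc1 were not called between genotypes. KO minus WT was above 0 for 3 of the 4 in intact, 2 in ovx and 4 in E2 uteri. Those below 0 were Acp5 in intact uteri, and Mmp9 and Nfatc1 in ovx uteri.

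Of 12 other genes used to recognise lymphangioleiomyomatosis, 11 were tested. In the average 3 were higher (Cd63, Mmp9 and Lyve1), where 4.17% of all genes were, and 2 lower (Pgr and Esr1), where 1.73% were. Cd63, a tetraspanin of melanosomes and lysosomes, was higher by 1.31 ± 0.28 (limma, adjusted p = 0.0148), at 113 ± 25 FPKM in KO intact and 51.9 ± 40.5 FPKM in WT intact uteri, 146 ± 72 FPKM in KO E2 and 50.6 ± 6.1 FPKM in WT E2 uteri, and 115 ± 6 FPKM in KO ovx and 54.0 ± 8.9 FPKM in WT ovx uteri (SD, n = 3). In intact uteri, where 1.19% of all genes were called higher, 3 were higher. They were the lymphatic receptors Flt4 by 1.61 ± 0.29 (adjusted p = 0.0103) and Lyve1 by 2.23 ± 0.45 (adjusted p = 0.0218) and the muscle filament gene Des by 2.76 ± 0.63 (adjusted p = 0.0395). In E2 uteri Mmp9 and the lymphatic glycoprotein Pdpn (2.55 ± 0.66, adjusted p = 0.0265) were higher, where 4.91% of all genes were. The steroid receptors Pgr (-2.05 ± 0.41, adjusted p = 0.00652) and Esr1 (-1.54 ± 0.33, adjusted p = 0.0095) were lower there, where 3.58% of all genes were.

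**Figure D4:**
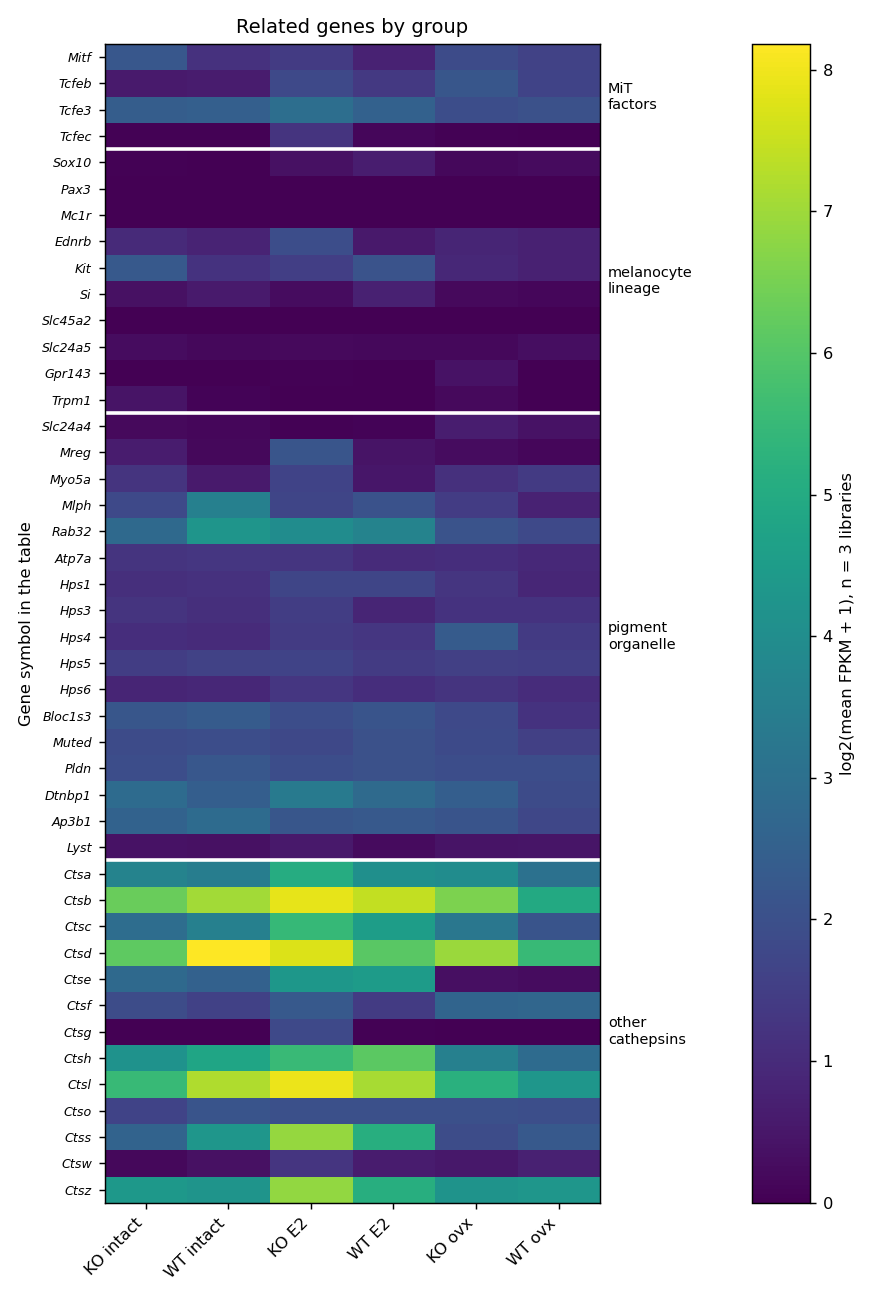
Mean level of related genes, as log2(mean FPKM + 1) over the 3 libraries of each group (colour), for the MiT factors, melanocyte lineage markers, pigment organelle genes and other cathepsins (rows, by the symbols of the table). Most melanocyte lineage markers are under 1 FPKM in every group, and Mitf is brighter in KO than in WT columns.

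Across the 18 libraries, the pattern of Gpnmb on the log2 scale was most like that of Ctla2b, Ctla2a and Parp3 (each Pearson r = 0.93), then Mlana and Eef1a2 (each r = 0.92), among 13897 other genes. Ctla2a and Ctla2b are similar copies whose reads can be shared, so they may count as 1 pattern. Mlana was most like the serotonin receptor gene Htr2b (r = 0.94), then Vat1 and Gpnmb (each r = 0.92), Phospho1 and Olfml2b (each r = 0.91). Htr2b averaged 1.24 ± 0.68 FPKM in KO intact and 0.174 ± 0.208 FPKM in WT intact uteri, and 2.28 ± 1.78 FPKM in KO E2 and 0.206 ± 0.010 FPKM in WT E2 uteri (SD, n = 3). Ctsk was most like Frzb, Rab31 and Loxl2 (each r = 0.94), Rhod (r = 0.93) and the collagenase Mmp14 (r = 0.92). Rab27a was most like 1700052K11Rik (r = 0.94), Lrrfip1 and 1500003O03Rik (each r = 0.91), and Lrrc20 and LOC100502673 (each r = 0.90). Between members, r was 0.88 for Gpnmb and Ctsk and 0.82 for Mlana and Ctsk, while Rab27a had r of 0.04 to 0.08 with the other 3. These correlations describe libraries that share groups and sets, and carry no test.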

How the data were processed

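Polyadenylated RNA of mouse uterus was read from 18 stranded libraries on single-end flow cells, per the labels' protocols. The authors computed the deposited FPKM values with Cufflinks 2.0.2 and Cuffdiff, per the submitters' processing notes, and no read counts are used here. The aligner, annotation and genome build are not given in the sources used here, and 12.3% of 20000 matched symbols overlapped their RefSeq position on GRCm38, so the table's positions are on another build. FPKM summed to 216032 to 591668 per library, and any further scaling between libraries is not given. Titles gave the groups and replicate numbers.

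From the FPKM, log2(FPKM + 1) was computed. Genes with at least 1 FPKM in at least 3 libraries were fitted with limma 3.58.1 in R 4.3.3, with a mean per group over all 18 libraries, eBayes with a mean-variance trend, and two-sided p-values adjusted by Benjamini-Hochberg over 13898 genes within each of 10 comparisons, at a threshold of 0.05. The fit was checked on simulated data. Figures were drawn in Python 3.11.15. All 9 members were named, and from each of 16 gene lists up to 4 genes called between genotypes were named, by smallest adjusted p. The 5 genes most like each member were those with the highest Pearson r. The members and lists were chosen with earlier results of these data known. Counts at an unadjusted p under 0.05 are given without the share of all genes at that level and describe the lists only. The labels do not say that shared replicate numbers pair libraries across genotypes, so no block was fitted in the main analysis. Alternatives were another pseudocount, filter, scaling, set of libraries, robust fit, replicate block, a term for sets of libraries, and leaving out libraries.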

Additional observations from a re-analysis of the deposited data

How the results depend on the processing

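Of members called, 2 in the intact genotype comparison became 0 with no filter, 1 with at least 0.1 FPKM in 3 libraries, 1 with only the groups compared, 1 in a robust fit, 0 with a term for sets of libraries, and 0 without any 1 library. After seeing the data, 2 sets of libraries were left out, first WT intact replicate 4 with KO E2 replicate 1 and second KO E2 replicates 1 and 3 with KO ovx replicate 4. The second left KO E2 replicate 2 alone in its group, so no count by comparison is given for it. In ovx uteri 0 became 1 under quantile normalization, 2 with only the groups compared, and 1 under the first omission. In E2 uteri 2 became 0 with only the groups compared, 0 under the first omission, and 0 to 3 without 1 library. For E2 against ovx, 3 in KO became 0 with only the groups compared and 1 to 3 without 1 library, and 2 in WT became 0 with no filter, 1 under median-ratio scaling, 1 with the term for sets and 0 to 1 without 1 library. For intact against ovx, 1 in KO became 0 with no filter, 0 under median-ratio scaling, 2 with only the groups compared, 0 with the term for sets, 3 under the first omission and 0 without any 1 library, and 1 in WT became 0 with only the groups compared, 2 under the first omission and 1 to 2 without 1 library. The difference in response to E2 called 0 to 1 without 1 library, and that to the ovaries 1 with only the groups compared. The averaged genotype difference called 2 to 3 members throughout.

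The replicate block gave 0 members called in the intact, E2, KO intact against ovx and WT E2 against ovx comparisons. Deviations of same-numbered KO and WT libraries correlated at -0.032 to 0.34. They were not compared with differently numbered libraries, so this neither shows nor excludes a pairing. The second omission left KO E2 replicate 2 as the only library of its group. Values turned round under it for Gpnmb in KO E2 against ovx (-0.14) and for the difference in response to E2 of Gpnmb (-1.22), Mlana (-0.0767) and Ctsk (-0.72). Without WT intact replicate 4, and likewise under the first omission, they did for Ctsk in the response to the ovaries (-0.0699 in both, -0.0699 to 1.27 without any 1 library) and for Rab27a in intact uteri (0.0844 in both, -0.83 to 0.0844) and in the average (0.00644 and 0.0366, -0.30 to 0.00644). The cause was not tested. Scaling moved the median of all genes by up to -0.29 in WT E2 against ovx under quantile normalization. With no counts, the precision of members under 0.1 FPKM is unknown.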

Other observations

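Trpm1 and Gpr143, members of the melanocyte lineage list, were picked after their values were seen and are given library by library without a test. Trpm1 read 0.270, 0.312 and 0.464 FPKM in KO intact libraries, against 0.0774, 0.115 and 0.0079 FPKM in WT intact libraries, and 0.0844, 0.128 and 0.235 FPKM in KO ovx libraries, against 0.0113, 0.0206 and 0.0278 FPKM in WT ovx libraries. In the E2 state it was at most 0.00547 FPKM in KO and 0.00455 FPKM in WT libraries, low as Dct was. Gpr143 read 0.247, 0.118 and 0.583 FPKM in KO ovx libraries, against 0.00821, 0.0109 and 0.00654 FPKM in WT ovx libraries. In intact uteri Gpr143 was at most 0.0251 FPKM in KO and 0.0189 FPKM in WT libraries.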
